A study of Homo sapiens with 22 samples.

Results

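The 10 genes described here encode the protein subunits of human RNase P and RNase MRP, and they were picked by symbol from the 20411 protein-coding genes of the deposited mRNA-seq tables. All 10 members (POP1, POP4, POP5, POP7, RPP14, RPP21, RPP25, RPP30, RPP38 and RPP40) have a row in both tables. MOLM-13 is an acute myeloid leukemia (AML) line with a rearranged KMT2A gene and mutant FLT3, and NB4 is an acute promyelocytic leukemia line that carries PML-RARA. Both lines, labelled wild type, were treated for 48 hours with 2 μM FP54 or with DMSO, the solvent control, and each of the 4 groups holds 3 libraries. FP54 is a PROTAC that recruits the VHL ubiquitin ligase to FTO, an RNA m6A demethylase, so FTO mRNA levels are no check of its action. Nothing in the labels says that the libraries of a group came from separate cultures, so p-values measure the spread between these libraries, which may be technical.

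RNase P is a ribonucleoprotein enzyme that removes the 5′ leader of precursor tRNAs, and RNase MRP is its relative that cuts the first internal transcribed spacer (ITS1) of the ribosomal RNA precursor. Each enzyme is built on its own noncoding RNA, transcribed by RNA polymerase III, and the catalytic core of RNase P is that RNA. The proteins wrap the RNA, and most of them are shared between both enzymes. POP1 is the largest protein and holds the RNA fold together. POP7 and RPP25 form a dimer on a stem of the RNA. POP5, RPP14, RPP30 and RPP40 form a second module, and POP4, RPP21 and RPP38 contact the specificity side of the RNA. The RNA components were not analysed here, since the tables list protein-coding genes.

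Promoter sequence was searched for motifs, as a description apart from the measured levels. Of the 10 members, 9 matched a RefSeq entry (build GRCh38.p14), POP1 being the exception. The 250 bases before the start site are printed for 3 members. POP7 and RPP38 were called lower with FP54 in NB4 cells, and POP4 was the least changed member in MOLM-13 cells. These picks rest on different lines, and a difference in response between the 3 was not tested. POP4 was also lower in NB4 cells (log2 fold change -0.34, not called), and neither POP7 nor RPP38 was called in MOLM-13 cells. POP7 lies at chr7:100705871-100706120 (plus strand), RPP38 at chr10:15097105-15097354 (plus strand) and POP4 at chr19:29606033-29606282 (plus strand). Capitals mark an E-box (CACGTG, the core letters bound by MYC and other basic helix-loop-helix proteins) or an ETS motif (CCGGAAG), each searched on both strands.
POP7: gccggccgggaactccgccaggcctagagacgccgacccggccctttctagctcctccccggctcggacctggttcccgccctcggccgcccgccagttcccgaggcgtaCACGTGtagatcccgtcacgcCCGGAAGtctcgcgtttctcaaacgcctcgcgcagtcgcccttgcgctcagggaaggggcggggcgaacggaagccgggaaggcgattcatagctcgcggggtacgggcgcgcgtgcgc
RPP38: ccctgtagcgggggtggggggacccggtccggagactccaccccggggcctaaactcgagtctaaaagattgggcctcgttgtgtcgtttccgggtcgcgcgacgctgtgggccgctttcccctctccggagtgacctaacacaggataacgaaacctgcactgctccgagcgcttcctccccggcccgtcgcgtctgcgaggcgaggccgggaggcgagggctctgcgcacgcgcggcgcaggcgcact
POP4: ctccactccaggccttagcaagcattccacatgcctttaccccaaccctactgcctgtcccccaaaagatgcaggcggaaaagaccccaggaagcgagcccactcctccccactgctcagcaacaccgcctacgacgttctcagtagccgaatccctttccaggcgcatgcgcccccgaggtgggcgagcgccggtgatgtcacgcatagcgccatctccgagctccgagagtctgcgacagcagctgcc

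Over the window from 250 bases before to 50 bases after the start, an E-box was present in the POP7 promoter only, at position -140, among the 9 matched members. The same motif was present in 8.89% of the 15270 promoters of genes in the tables. An ETS motif was present in POP7 at -119 and in POP4 at +20, past the printed stretch, and in 14.4% of all promoters. The letters TATAAA were found in no member promoter and in 9.59% of all promoters. These matches describe the letters and no factor was measured at them.

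The deposited values are RPKM, reads scaled by gene length and by the total of the library. Library totals on genes were between 16313412 and 17362383 reads in MOLM-13 with DMSO and between 5836561 and 19207443 with FP54, where replicate 2 was the shallowest. In NB4 cells they were between 20662788 and 22349806 with DMSO and between 10602329 and 13079312 with FP54. Apart from RPP21, the members had 16 to 1118 reads per library in MOLM-13 cells and 62 to 1355 in NB4 cells. MOLM-13 DMSO replicate 2 stood apart: on the first principal component, with 64.9% of the variance, it lay at -10.3 while the other DMSO libraries lay at -30.4 and -33.8 and the FP54 libraries between 16.1 and 39.7. Myeloid markers were present in both lines, with 10 of 10 (MOLM-13) and 9 of 10 (NB4) at a mean of at least 1 RPKM. In NB4 cells 1 of 4 T cell markers was above that level, CD3D, and the sum of the 4 was 6.65 to 7.43 RPKM with DMSO and 12.1 to 12.6 with FP54, whose part in the results below was not tested. The erythroid markers summed to at most 0.235 RPKM in any library.

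For each line a limma model of log2(RPKM + 0.1) set FP54 against DMSO, for genes whose RPKM averaged 1 or more. The cutoff of the study's methods was used for calls, an unadjusted p below 0.01 and a log2 difference of 0.5 or more in size, and the Benjamini-Hochberg adjusted p over all genes tested is given beside it. With 3 libraries a group, the smallest two-sided p of an exact permutation test is 0.1. Of the 10 members, 8 passed the filter in MOLM-13 and 9 in NB4.

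**Figure D1:**
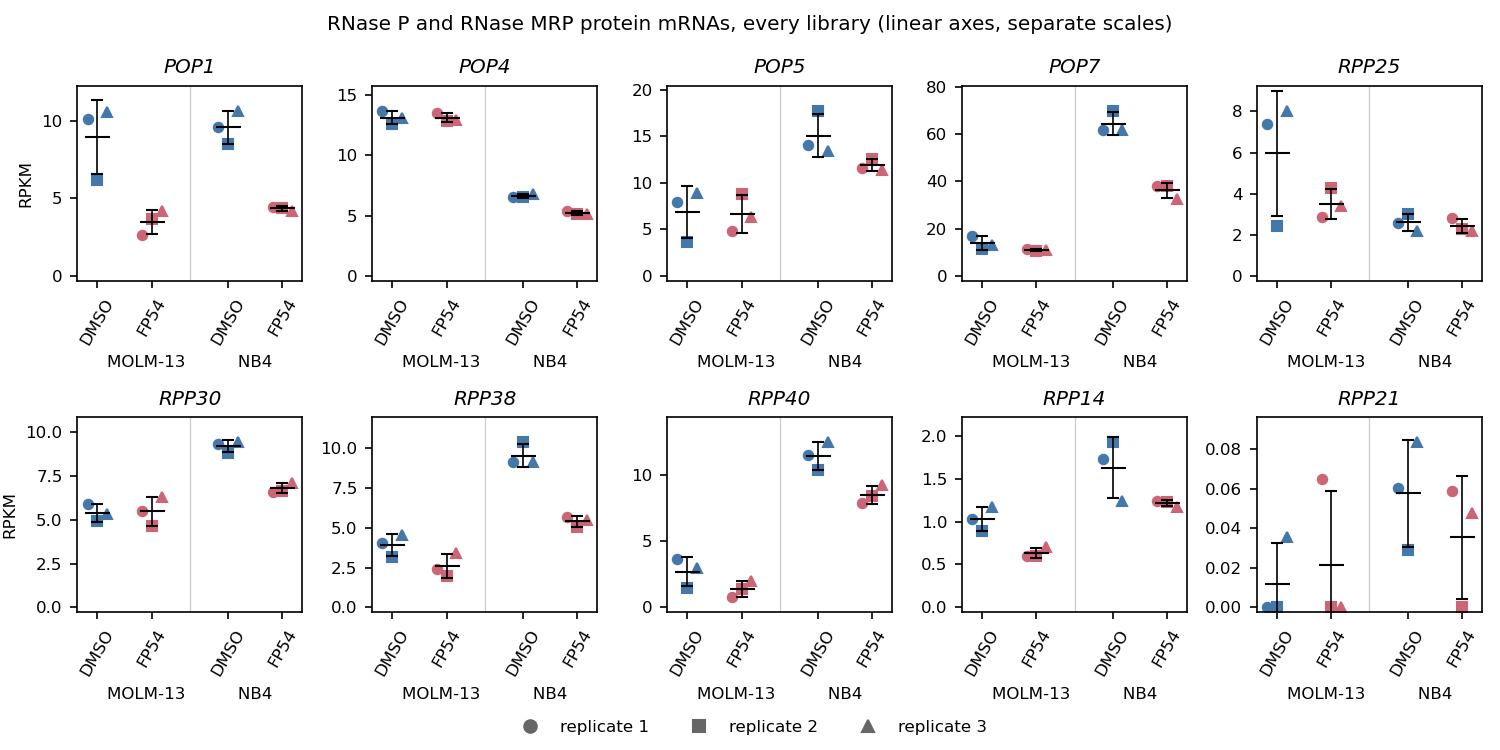
RPKM of each member in every library (vertical axes, linear, a separate scale for each gene), with DMSO in blue and FP54 in red, replicates as circles, squares and triangles, and black bars for the mean ± SD (n = 3). POP1 is the member tested in both lines whose FP54 libraries lie below all DMSO libraries in each, and RPP21 stays under 0.1 RPKM in all 12 libraries.

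FP54 lowered POP1 in both lines, and no member was called higher in either. In MOLM-13 cells POP1 was the sole member called lower, 1 of 8 tested, where 9.04% of the 9710 genes tested were called lower and 9.3% higher. In NB4 cells POP1, POP7 and RPP38 were called lower, 3 of 9 tested, where 10.7% of the 9853 genes tested were called lower and 18.6% higher. At an adjusted p below 0.05, without a fold minimum, POP1 alone was lower in MOLM-13 cells (1 of 8, against 9.32% of all genes) and 7 of 9 were lower in NB4 cells (against 22% of all genes). The median log2 fold change of the tested members was -0.45 in MOLM-13 and -0.42 in NB4, beside medians over all genes of 0.0033 and 0.07. RNA was taken from whole cultures, so fewer cells of a type and less RNA per cell cannot be told apart.

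POP1, the scaffold protein (chromosome 8, 98117293 to 98159835, plus strand, hg38), was at 10.1, 6.18 and 10.5 RPKM in the MOLM-13 DMSO libraries and at 2.62, 3.64 and 4.18 RPKM with FP54. The groups did not overlap, although DMSO replicate 2 lay nearest to the FP54 libraries. Behind these levels were 813, 489 and 887 reads with DMSO and 244, 103 and 244 with FP54. The log2 fold change was -1.32 ± 0.24 (SE, adjusted p = 0.00711, limma). In NB4 cells POP1 was at 9.56, 8.52 and 10.6 RPKM with DMSO and at 4.45, 4.41 and 4.19 RPKM with FP54. These groups were far apart, and the FP54 libraries were close to each other. The log2 fold change was -1.12 ± 0.11 (SE, adjusted p = 1.62e-05, limma). The effect in NB4 minus that in MOLM-13 was 0.21 (95% interval -0.39 to 0.81, adjusted p = 0.668), so a difference between the lines was not detectable. POP1 was called lower in both lines under every alternative setting run and without each library in turn.

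POP7 (RPP20), which pairs with RPP25, was the most abundant member in NB4 cells. Its NB4 levels were 61.8, 69.8 and 61.6 RPKM with DMSO and 38.1, 37.8 and 32.4 RPKM with FP54. The groups did not overlap, and the log2 fold change was -0.83 ± 0.09 (SE, adjusted p = 4.83e-05, limma). In MOLM-13 cells POP7 was at 17.1, 11.4 and 13.3 RPKM with DMSO and at 11.4, 10.5 and 11 RPKM with FP54. Here the lowest DMSO library touched the highest FP54 library, and the log2 fold change, -0.32 ± 0.17 (SE) missed the threshold (95% interval -0.69 to 0.05, adjusted p = 0.199). Without DMSO replicate 1 it was -0.16 (adjusted p = 0.618). The difference between the lines was -0.52 (95% interval -0.93 to -0.10, unadjusted p = 0.0177, adjusted p = 0.0917).

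RPP25, the partner of POP7 and the product of a gene with 1 exon, had the widest spread among the MOLM-13 DMSO libraries. It was at 7.39, 2.45 and 8.03 RPKM with DMSO and at 2.85, 4.30 and 3.39 RPKM with FP54. DMSO replicate 2 was below all 3 FP54 libraries, and the log2 fold change was -0.59 ± 0.38 (SE, adjusted p = 0.294, limma). Without that library it was -1.13 and called lower (adjusted p = 0.00709), while it was -0.29 without DMSO replicate 3 (adjusted p = 0.687) and -0.35 without DMSO replicate 1 (adjusted p = 0.604). In NB4 cells RPP25 was at 2.59, 3.03 and 2.20 RPKM with DMSO and at 2.81, 2.26 and 2.18 RPKM with FP54. These groups overlapped, with a log2 fold change of -0.10 (95% interval -0.43 to 0.22, adjusted p = 0.579). RPP25L, its paralogue, was the more abundant mRNA of the pair in every library. In MOLM-13 cells RPP25L was at 7.77 ± 1.19 RPKM with DMSO and 7.73 ± 1.12 with FP54 (SD, n = 3), and its log2 difference was -0.0065 (adjusted p = 0.983, limma) whose sign turned under some settings. In NB4 cells it was at 16.5 ± 2.22 RPKM with DMSO and 19.8 ± 0.241 with FP54 (SD, n = 3), and its log2 difference was 0.27 (adjusted p = 0.0495, limma), under the fold minimum. It was 0.068 under median-ratio scaling (adjusted p = 0.645), and it missed the adjusted threshold in 5 of the 6 fits without 1 library (adjusted p up to 0.144), the other being that without DMSO replicate 2. The ratio of RPP25 to RPP25L was 0.382 to 0.933 in MOLM-13 with DMSO and 0.142 to 0.174 in NB4 with DMSO.

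RPP38, a protein of the L7Ae family that binds kink-turn RNA, was the third member called lower in NB4 cells. It was at 9.08, 10.3 and 9.09 RPKM with DMSO and at 5.67, 5.03 and 5.47 RPKM with FP54. The groups were well apart, and the log2 fold change was -0.81 ± 0.10 (SE, adjusted p = 9.18e-05, limma). In MOLM-13 cells RPP38 was at 4.01, 3.18 and 4.54 RPKM with DMSO and at 2.43, 1.96 and 3.4 RPKM with FP54. FP54 replicate 3 lay above DMSO replicate 2, and the log2 fold change of -0.59 ± 0.23 (SE) was not called (unadjusted p = 0.025, adjusted p = 0.0914). It was called after quantile normalization (-0.60, adjusted p = 0.0468) and without FP54 replicate 3 (-0.80, adjusted p = 0.0359). NMT2, on the opposite strand, covers 25.5% of the main RPP38 transcript. NMT2 was at 0.290 ± 0.0813 RPKM with DMSO and 0.727 ± 0.121 with FP54 in MOLM-13 cells (SD, n = 3). In NB4 cells it was at 1.73 ± 0.0237 and 2.31 ± 0.0833 (SD, n = 3), and its part in the RPP38 values was not tested. The library kit marks strand, but whether the counting used it is not given in the sources used here.

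RPP40, of the POP5 module, had the fewest reads of the 8 members tested in MOLM-13 cells. It was at 3.64, 1.49 and 3.00 RPKM with DMSO, from 119, 48 and 103 reads. With FP54 it was at 0.791, 1.39 and 1.98 RPKM, from 30, 16 and 47 reads. The groups overlapped through DMSO replicate 2, and the log2 fold change was -0.91 ± 0.36 (SE, unadjusted p = 0.0304, adjusted p = 0.104). It was called lower without DMSO replicate 2 (-1.28, adjusted p = 0.0244) and, at the unadjusted cutoff, without FP54 replicate 3 (-1.20). Without FP54 replicate 1 it moved the other way, to -0.59 (adjusted p = 0.355). In NB4 cells RPP40 was at 11.5, 10.4 and 12.5 RPKM with DMSO and at 7.88, 8.43 and 9.21 RPKM with FP54. These groups did not overlap. The log2 fold change of -0.42 ± 0.10 (SE, adjusted p = 0.00623, limma) passed the adjusted threshold and not the fold minimum.

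RPP30 and POP5, which bind each other at the core of that module, were not called in MOLM-13 cells and passed the adjusted threshold in NB4 cells. In MOLM-13 cells RPP30 was at 5.90, 4.90 and 5.31 RPKM with DMSO and at 5.47, 4.66 and 6.28 RPKM with FP54. The groups overlapped throughout, with a log2 fold change of 0.02 (95% interval -0.35 to 0.39, adjusted p = 0.944). In NB4 cells RPP30 was at 9.34, 8.79 and 9.41 RPKM with DMSO and at 6.60, 6.63 and 7.12 RPKM with FP54. These groups were apart, and the log2 fold change was -0.43 ± 0.09 (SE, adjusted p = 0.00249, limma), below the fold minimum of the cutoff. The difference between the lines was -0.45 (unadjusted p = 0.0254, adjusted p = 0.115).

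POP5 took either sign in MOLM-13 cells with the choice of libraries. It was at 7.97, 3.64 and 8.95 RPKM in the MOLM-13 DMSO libraries and at 4.81, 8.82 and 6.30 RPKM with FP54. Both the lowest and the highest library were in the DMSO group, and the log2 fold change was 0.01 (95% interval -0.71 to 0.73, adjusted p = 0.982), or -0.38 without DMSO replicate 2 (adjusted p = 0.269). In NB4 cells POP5 was at 14.1, 17.7 and 13.4 RPKM with DMSO and at 11.6, 12.6 and 11.4 RPKM with FP54. The highest FP54 library was below the lowest DMSO library, with a log2 fold change of -0.33 ± 0.11 (SE, adjusted p = 0.0317, limma). It was -0.21 without DMSO replicate 2 (adjusted p = 0.0399), and the adjusted threshold was missed without FP54 replicate 1, 2 or 3 (adjusted p = 0.0957, 0.0524 and 0.104).

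POP4 (RPP29) had the smallest log2 fold change of the tested members in MOLM-13 cells. It was at 13.7, 12.6 and 13.1 RPKM in the MOLM-13 DMSO libraries and at 13.5, 12.9 and 12.9 RPKM with FP54. The groups coincided, and the 95% interval of the log2 fold change was -0.29 to 0.28 around -0.0026 (adjusted p = 0.991). In NB4 cells POP4 was at 6.54, 6.5 and 6.81 RPKM with DMSO and at 5.41, 5.13 and 5.10 RPKM with FP54. These groups were apart, and the log2 fold change was -0.34 ± 0.09 (SE, adjusted p = 0.0103, limma). Without FP54 replicate 2 or 3 the adjusted p was 0.0524 and 0.0502. The difference between the lines was -0.34 (95% interval -0.64 to -0.03, unadjusted p = 0.0325, adjusted p = 0.136).

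RPP14 and RPP21 had the lowest levels. RPP14 was at 1.03, 0.894 and 1.16 RPKM in the MOLM-13 DMSO libraries and at 0.603, 0.594 and 0.705 RPKM with FP54. The groups did not overlap, but the mean fell short of the filter. Fitted without a filter, the log2 fold change was -0.62 ± 0.21 (SE, unadjusted p = 0.0187, adjusted p = 0.106). In NB4 cells RPP14 was at 1.72, 1.92 and 1.24 RPKM with DMSO and at 1.24, 1.23 and 1.17 RPKM with FP54. DMSO replicate 3 and FP54 replicate 1 were equal to 3 digits, and the log2 fold change was -0.38 ± 0.16 (SE, adjusted p = 0.0780, limma). It was -0.55 and called lower without DMSO replicate 3 (adjusted p = 0.0138). RPP21 had 0 to 2 reads in each MOLM-13 library and 0 to 3 in each NB4 library, so no fold is given.

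Both genes share exons with another protein-coding gene on the same strand. RPP14 lies at chromosome 3, 58306245 to 58324695, and HTD2, with which it shares a bicistronic transcript, covers 96.5% of its main transcript. RPP21 lies at chromosome 6, 30345131 to 30346884, and the readthrough gene TRIM39-RPP21 covers 85.6% of its main transcript. HTD2 was at no more than 0.0667 RPKM in any MOLM-13 library, and TRIM39-RPP21 was listed at 0 in all 12 libraries. Among the 316 genes with at least 90% of their main transcript shared in this way, 69.6% (MOLM-13) and 65.2% (NB4) were below 0.1 RPKM. Among the 18073 genes that share nothing, 39.3% and 34.2% were. RPP14 is in the class of at least 90% but lies above 0.1 RPKM, and RPP21, at 85.6%, is outside that class. How reads that fit 2 genes were counted is not given in the sources used here, and its part in these low levels was not tested.

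**Figure D2:**
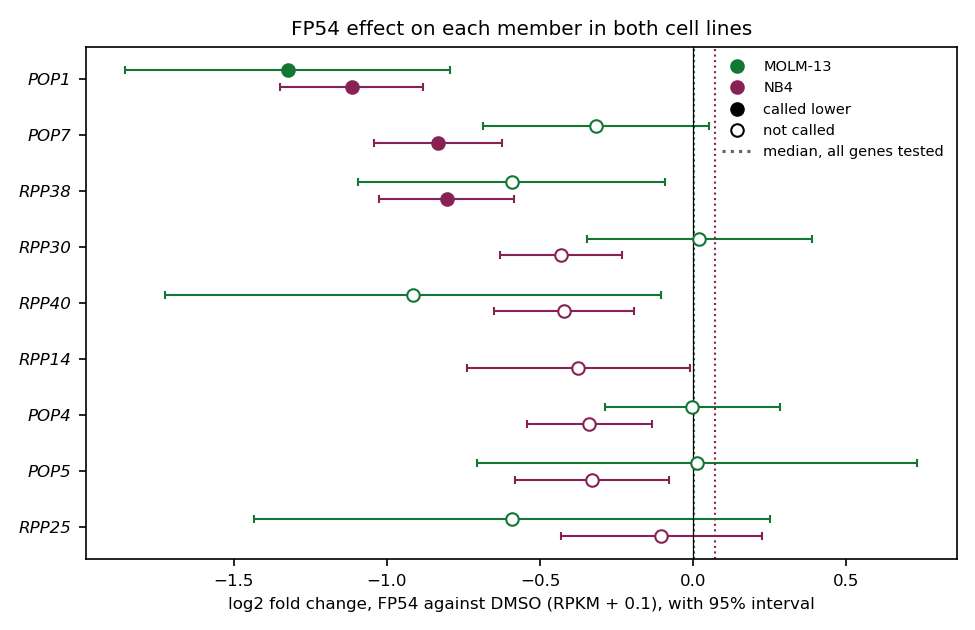
Log2 fold change of each tested member (FP54 against DMSO, horizontal axis, on the log2(RPKM + 0.1) scale) with its 95% interval, MOLM-13 in green and NB4 in purple, and filled points for members called lower. Dotted lines mark the median of all genes tested, which is 0.0033 in MOLM-13 and 0.07 in NB4. All 9 NB4 points are below 0, and the MOLM-13 intervals are the wider ones.

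Counted by sign and by overlap, the members stood as follows. In NB4 cells 9 of 9 tested members had a negative log2 fold change, beside 44.2% of all genes, and in 8 of 9 the FP54 libraries were all below the DMSO libraries, beside 26.2% of all genes. RPP25 was the member whose NB4 groups overlapped. RPP14 is among the 8 by a near tie, with its highest FP54 library at 1.23945 RPKM and its lowest DMSO library at 1.23961. In MOLM-13 cells 6 of 8 were negative, beside 49.7% of all genes, and in 1 of 8, POP1, all FP54 libraries were below the DMSO libraries, beside 17% of all genes, so the share of members without overlap was no higher than that of all genes. The signs of POP4, POP5 and RPP30 in MOLM-13 cells turned under some settings.

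The size of the NB4 effects depends on how the libraries are scaled. Median-ratio scaling moved the median of all NB4 genes from 0.07 to -0.13, and the genes called lower and higher went from 1050 and 1834 to 2008 and 1184. Quantile normalization gave 1365 lower and 1281 higher. Under median-ratio scaling 8 of 9 members were called lower, all except RPP25, and under quantile normalization 5 were (POP1, POP7, RPP38, RPP30 and RPP14). Taken relative to the median of all genes, the POP1 value was -1.19 as deposited, -1.19 under median-ratio scaling and -1.22 under quantile normalization. For POP7 these were -0.90, -0.91 and -0.66, and for RPP38 -0.88, -0.88 and -0.89. Median-ratio scaling shifts all genes of a library alike, so its match to the deposited values was fixed in advance and tests nothing.

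No member differed between the lines in its response to FP54 at an adjusted p below 0.05 (0 of 8 tested in both, limma interaction), where 14.2% of the 8849 genes tested did. At an unadjusted p below 0.05, 3 members were lower in NB4 (POP4, POP7 and RPP30) and 0 were higher, where 9.41% of all genes were lower and 18.8% higher. Limma-voom on reads recovered from the RPKM also called 0. Median-ratio scaling called 3 lower (POP4, POP7 and RPP30), where 9.42% of all genes were called lower, and quantile normalization 2 (POP4 and RPP30), where 9.16% were. Without MOLM-13 DMSO replicate 2, RPP25 was called higher (1.03, adjusted p = 0.0134), as were 12.9% of all genes. Without MOLM-13 DMSO replicate 1 POP7 was called lower (-0.67, adjusted p = 0.0216), and without MOLM-13 FP54 replicate 2 RPP30 was (-0.56, adjusted p = 0.0373), where 3.3% and 5.06% of all genes were called lower.

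The summed RPKM of the 10 members was 70.8, 46.7 and 67.9 in the MOLM-13 DMSO libraries and 44.5, 48.8 and 50.2 with FP54. DMSO replicate 2 lay among the FP54 libraries. In NB4 cells the sums were 126, 137 and 127 with DMSO and 83.9, 83.5 and 78.3 with FP54, with a wide gap between the groups. The tables of both lines were normalized separately, so levels set across them are descriptions.

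**Figure D3:**
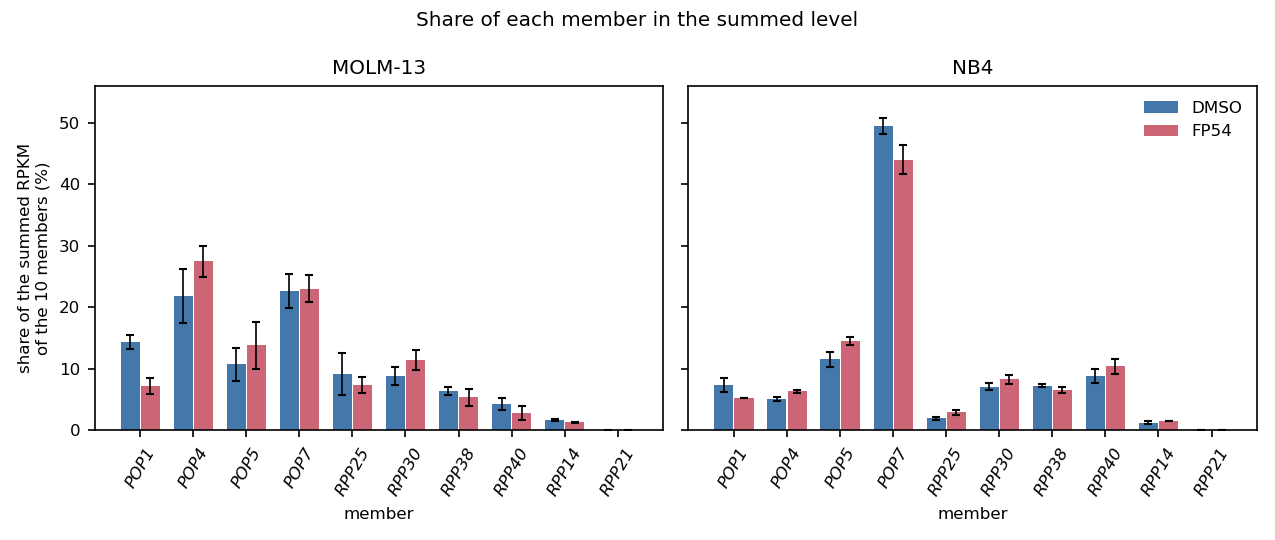
Share of each member in the summed RPKM of the 10 members (vertical axis, percent, from 0), as the mean ± SD (n = 3) of DMSO (blue) and FP54 (red) libraries, MOLM-13 on the left and NB4 on the right. POP7 takes 49.5% in NB4 with DMSO, and POP1 goes from 14.3% to 7.22% in MOLM-13.

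The order of the members by level differed between the lines, below POP7, which came first with DMSO in both. In MOLM-13 cells with DMSO, POP7 (22.7% ± 2.7 of the sum, SD, n = 3) and POP4 (21.9% ± 4.44) led, and their ranges overlapped. POP1, POP5, RPP25 and RPP30 followed in that order with overlapping neighbours, then RPP38 and RPP40, which overlapped each other, then RPP14 and RPP21. In NB4 cells with DMSO, POP7 took 49.5% ± 1.30 (SD, n = 3) and stood clear of POP5 at 11.5% ± 1.25, while RPP40, POP1, RPP38 and RPP30 followed with overlapping neighbours and POP4 came only after them. From MOLM-13 to NB4 with DMSO, POP4 went from place 2 to 7, RPP40 from 8 to 3 and RPP25 from 5 to 8. The ratio of POP7 to POP4 was 0.903 to 1.25 in the MOLM-13 DMSO libraries and 9.04 to 10.7 in those of NB4.

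With FP54, POP1 moved down the order in both lines. In MOLM-13 cells it went from the third place to the sixth and from 14.3% ± 1.14 to 7.22% ± 1.24 of the sum (SD, n = 3), and its range overlapped those of RPP25 and RPP38. In NB4 cells it went from the fourth place to the seventh and from 7.39% ± 1.09 to 5.31% ± 0.0384, below POP4 with no overlap. POP4 rose in place, to the first in MOLM-13 cells with 27.5% ± 2.52 of the sum. POP7 kept the first place in NB4 cells with 44% ± 2.30.

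The genes most like POP1 were found by Pearson's r over the 12 libraries, with the log2 values centred within each line, among 8848 genes. They were HSPH1 (a chaperone of the HSP110 family, r = 0.992), NELFCD (a subunit of the negative elongation factor, r = 0.989), PA2G4 (EBP1, a ribosome-associated growth regulator, r = 0.989), DCUN1D5 (a neddylation factor, r = 0.987) and DCTPP1 (a dCTP pyrophosphatase, r = 0.985). These points share libraries, depth and treatment, so the r values are descriptions. Of the members, RPP38 (r = 0.883, rank 643) and RPP40 (r = 0.865, rank 774) were nearest to POP1, then POP7 at 0.803, and POP5 was farthest at 0.431.

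Other genes of tRNA and 5.8S rRNA processing were taken from lists written from general knowledge. Over 7 lists with 26 genes, 23 passed the filter in MOLM-13 cells, of which 6 were called lower and 0 higher (9.04% and 9.3% of all genes), with a median log2 fold change of -0.47 (0.0033 over all genes). In NB4 cells 25 passed, of which 8 were called lower and 0 higher (10.7% and 18.6% of all genes), with a median of -0.38 (0.07 over all genes). Without the fold minimum, MOLM-13 cells had 6 listed genes below and 0 above zero at an adjusted p under 0.05 (9.32% of all genes were below), and NB4 cells had 15 below and 3 above (22% of all genes were below).

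Mitochondrial RNase P is an enzyme made of protein alone that cuts mitochondrial tRNA precursors. All 3 of its genes were called lower in NB4 cells and 2 of 3 in MOLM-13 cells. TRMT10C, its tRNA-binding methyltransferase subunit, was at 23.2 ± 7.24 RPKM with DMSO and 12.2 ± 2.66 with FP54 in MOLM-13 cells (SD, n = 3, log2 fold change -0.89, adjusted p = 0.0325, limma). That call was lost in 4 of 6 fits without 1 library and with no filter. In NB4 cells it was at 35 ± 2.52 and 20.2 ± 2.53 RPKM (SD, n = 3, log2 fold change -0.79). PRORP, the nuclease subunit, had a log2 fold change of -0.73 in MOLM-13 (adjusted p = 0.0444) and -0.51 in NB4 cells (adjusted p = 0.0153), and lost the call in 5 of 6 and 4 of 6 fits without 1 library and in both lines with no filter. Its MOLM-13 call was also lost with the replicate number as a block (unadjusted p = 0.0108, adjusted p = 0.0599) and after quantile normalization, and its NB4 call with a pseudocount of 1 (-0.34). HSD17B10, the dehydrogenase subunit, was at -0.73 in MOLM-13 cells (not called, adjusted p = 0.0693) and at -0.82 in NB4 cells, the lowest value of all listed genes there. In MOLM-13 cells it was called with the replicate number as a block (adjusted p = 0.0248), under median-ratio scaling (adjusted p = 0.0447) and after quantile normalization (adjusted p = 0.0385). It was also called without DMSO replicate 2 (-0.93) or FP54 replicate 3 (-0.94), and was at -0.47 without FP54 replicate 2 (adjusted p = 0.153).

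Of the genes for tRNA 3′ ends, SSB encodes the La protein, which binds the ends of new RNA polymerase III transcripts. SSB was called lower in both lines. It went from 52.7 ± 8.21 to 31.7 ± 7.25 RPKM in MOLM-13 cells (SD, n = 3, log2 fold change -0.74, adjusted p = 0.0249, limma) and from 103 ± 5.14 to 66.9 ± 6.68 RPKM in NB4 cells (SD, n = 3, log2 fold change -0.63). The call in MOLM-13 cells was lost without DMSO replicate 3 (adjusted p = 0.104) and without FP54 replicate 1 (adjusted p = 0.103), and that in NB4 cells after quantile normalization, where the log2 fold change was -0.45. Of the tRNA ligase complex, which joins tRNA exons after intron removal, 0 of 5 were called in MOLM-13 cells and 1 of 5 in NB4 cells. Of the 7 listed genes for the ends of 5.8S rRNA and its spacers, 1 of 6 tested was called lower in each line.

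TSEN15 and XPOT took opposite signs in the 2 lines (difference 1.55, adjusted p = 0.00427, and 1.18, adjusted p = 0.000843, limma interaction). TSEN15, a structural subunit of the endonuclease, went from 1.80 ± 0.549 to 0.722 ± 0.230 RPKM in MOLM-13 cells (SD, n = 3, log2 fold change -1.21, adjusted p = 0.0202, limma), the lowest of the listed genes, and was not called without DMSO replicate 3 (adjusted p = 0.104). In NB4 cells it went from 4.06 ± 0.295 to 5.15 ± 0.301 RPKM (SD, n = 3, log2 fold change 0.34, adjusted p = 0.0205, limma), under the fold minimum, and it missed the adjusted threshold at 0.14 under median-ratio scaling and after quantile normalization. It also missed that threshold without DMSO replicate 3, FP54 replicate 2 or FP54 replicate 3 (adjusted p = 0.0745, 0.106 and 0.0536, limma). TSEN34, a catalytic subunit, had the highest value in MOLM-13 cells (0.75, adjusted p = 0.0671, called only without FP54 replicate 2, at 0.90) and was at -0.24 in NB4 cells (adjusted p = 0.464). XPOT, which exports tRNAs from the nucleus, was called lower in MOLM-13 cells (-0.73, adjusted p = 0.0134) and had the highest value in NB4 cells (0.45, adjusted p = 0.00343, and 0.25, adjusted p = 0.0507, under median-ratio scaling), under the fold minimum except after quantile normalization (0.60) and without NB4 DMSO replicate 1 (0.50).

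**Figure D4:**
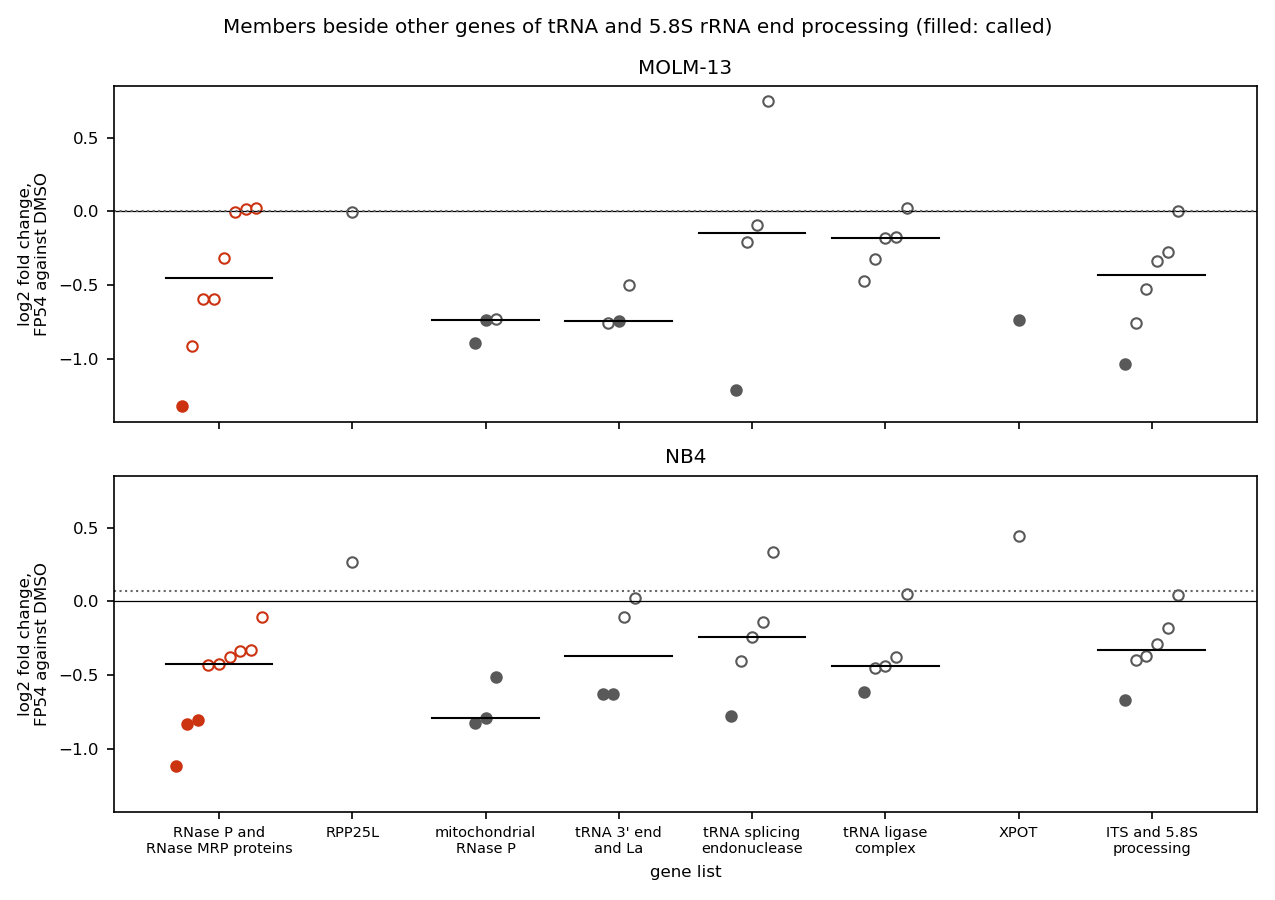
Log2 fold change (FP54 against DMSO, vertical axis) of each tested gene by list, the members in red and the other lists in grey, with filled points for called genes, horizontal bars for list medians and a dotted line for the median of all genes. In NB4 (lower panel) XPOT at 0.45 and TSEN15 at 0.34 are the highest points, while TSEN15 at -1.21 is the lowest of the grey points in MOLM-13 (upper panel).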

How the data were processed

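Of the 22 samples in the labels, the 12 mRNA-seq libraries were used, and the other 10 were not analysed here. According to the study's methods and the labels, poly(A) RNA was selected, Cutadapt 4.8 trimmed the reads, Clumpify took out duplicates, STAR 2.7.11b aligned the remainder to hg38, and reads were counted on protein-coding GENCODE V42 genes with featureCounts 2.0.3. The authors deposited RPKM, and the gene length and library total behind them are not given in the sources used here. The cell line of the NB4 columns comes from the name of the table. Removing duplicates without molecular identifiers can lower high levels more than low ones.

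RPKM were multiplied by GENCODE 44 exon lengths to recover reads. Of values below 20 reads, 99 to 99.5% came out whole (within 0.1 of a whole number), as did all 120 member values. Log2(RPKM + 0.1) was fitted with limma 3.58.1 in R 4.3.3 (eBayes with a trend) for genes whose RPKM averaged 1 or more, in each line and as an interaction over 12 libraries. RPKM are not counts, so the count test of the study's methods was not used. Calls needed p below 0.01 and a log2 difference of 0.5 or more, and the interaction an adjusted p below 0.05. Alternatives were pseudocounts of 1 and 0.01, no filter or a mean of at least 5, 2 scalings, eBayes without a trend, a replicate block, the adjusted p alone, limma-voom on recovered reads, and leaving out each library. The fits were tested on simulated data with planted differences larger than that of any member in the main fits. How well smaller differences are found was not tested. Tables and figures were made in Python 3.11.15 with pandas 2.3.3, numpy 2.4.6 and matplotlib 3.10.9.

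The members, gene lists, tests and alternatives were chosen with earlier results of these data known. All members are given. Listed genes are named where called in both lines or at an extreme of log2 fold change in a line, and for POP1 the 5 most alike genes. PDCD11, ELAC2, CLP1, DDX1 and LAS1L fall outside this rule and were named after their values were seen.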

Additional observations from a re-analysis of the deposited data

Results flagged for a closer look

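Of the 23 listed pathway genes that passed the filter in MOLM-13 cells, all tested in NB4 cells too, 2 responded to FP54 differently in the 2 cell lines. That share was no higher than among all genes, where 14.2% of the 8849 tested passed the interaction test. For TSEN15, a subunit of the tRNA splicing endonuclease, the log2 fold change in NB4 cells minus that in MOLM-13 cells was 1.55 (adjusted p = 0.00427, limma). It ranged from 0.97 to 1.76 over the alternatives that tested it and with each library left out, staying past the threshold in each. With the filter at a mean of at least 5 RPKM, TSEN15 was not tested. For XPOT, the tRNA export receptor, the difference was 1.18 (adjusted p = 0.000843, limma). Its range was 1.01 to 1.33 over all alternatives and with each library left out, also past the threshold in each. No member was set apart in this way, and a group of 3 libraries is below the size at which a far-lying library is looked for.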

How the results depend on the processing

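Members called lower in MOLM-13 cells numbered 1, and 2 after quantile normalization, where 878 and 934 of the 9710 genes tested were called lower. With a library left out the number was 1 to 3 (3 without DMSO replicate 2 or FP54 replicate 3). In NB4 cells the number was 3, against 8 under median-ratio scaling and 5 after quantile normalization. Of the 9853 genes tested, 1050, 2008 and 1365 were called lower in these fits. At an adjusted p below 0.05 alone the number was 7, beside 22% of all genes, and with a library left out it was 3 to 4. For the fits of 1 line with a library left out or with a replicate block, shares of all genes are not given here. Members that differed between the lines numbered 0, against 3 lower under median-ratio scaling and 2 lower after quantile normalization (9.42% and 9.16% of all genes were lower). With a library left out, 0 to 1 were lower and 0 to 1 higher, beside 2.26 to 5.06% and 6.89 to 12.9% of all genes. Signs turned for values near 0. In MOLM-13 cells POP5 was at -0.011 under median-ratio scaling, at -0.066 with voom and from -0.38 (without DMSO replicate 2) to 0.25 with a library left out. RPP30 was at -0.0040 under median-ratio scaling and from -0.083 (without FP54 replicate 3) to 0.13 with a library left out. POP4 was at 0.0036 after quantile normalization, at 0.0017 with voom and from -0.031 to 0.028 with a library left out. RPP25L was at 0.031 with voom and from -0.14 to 0.12 with a library left out. With a library left out, RPP25 in NB4 cells ranged from -0.21 to 0.0058, and the POP5 difference between the lines from -0.58 to 0.054 (without MOLM-13 DMSO replicate 2). The cause was not tested, apart from the fewer libraries of these fits. The labels give both treatments the numbers 1 to 3, but same-numbered libraries did not deviate together (r across genes of -0.26, -0.13 and -0.06 in MOLM-13 cells and -0.14, 0.07 and 0.12 in NB4 cells). Differently numbered pairs ranged from -0.46 to 0.59 in MOLM-13 cells and from -0.26 to 0.22 in NB4 cells. What such pairs share was not tested. With the number as a replicate block, 1 member was called in MOLM-13 cells, 3 in NB4 cells and 0 in the interaction, and of the other named genes the block changed the calls of HSD17B10 and PRORP in MOLM-13 cells. Depth limits RPP21, with at most 3 reads in any library, and RPP40 in MOLM-13 cells, with 16 reads in the shallowest library.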

Other observations

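Some listed genes of tRNA and rRNA end processing were called in 1 line and had negative values in the other. ELAC2, the nuclease that trims tRNA 3′ ends, was called lower in NB4 cells (log2 fold change -0.63, adjusted p = 0.000285, limma) and was at -0.76 in MOLM-13 cells (adjusted p = 0.0729). LAS1L, a subunit of the complex that cuts ITS2, was called lower in NB4 cells (-0.67, adjusted p = 0.000248) and was at -0.76 in MOLM-13 cells (adjusted p = 0.108). CLP1, an RNA kinase bound to the tRNA splicing endonuclease, was called lower in NB4 cells (-0.78) and was at -0.21 in MOLM-13 cells (adjusted p = 0.405). DDX1, a helicase of the tRNA ligase complex, was called lower in NB4 cells (-0.62) and was at -0.32 in MOLM-13 cells (adjusted p = 0.127). PDCD11, the human relative of yeast Rrp5, which acts where ITS1 is cut, was called lower in MOLM-13 cells (-1.04, adjusted p = 0.0232) and was at -0.39 in NB4 cells (adjusted p = 0.00193), under the fold minimum. Leaving out MOLM-13 DMSO replicate 2, ELAC2 (-1.08) and LAS1L (-1.03) were also called lower in MOLM-13 cells, as was LAS1L without FP54 replicate 2 (-1.04), while LAS1L was at -0.45 without FP54 replicate 1 (adjusted p = 0.372), and the call of PDCD11 was lost without FP54 replicate 1 (-0.80). None of these 5 genes passed the test of a difference between the lines.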
